A study of Rattus norvegicus with 6 samples.

Results

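Heat shock chaperones of the cytosol and the mitochondria were followed in the neuroretina of diabetic rats whose eyes had received spironolactone. The set was chosen by gene symbol, with earlier results of these data known, and holds 10 of the 28358 genes in the tables: Hspa1a, Hspa1b, Hspa8, Hsp90aa1, Hsph1, Dnajb1, Hspd1, Hspe1, Hspb1 and Hspb8. Counts were high enough to test 8 of them. The other 2, Hspa1a and Hsp90aa1, were listed at 0 in all 6 libraries. RNA was sequenced from 2 groups of male GK (Goto-Kakizaki) rats aged 14 months, a lean strain with inherited type 2 diabetes. The spironolactone group (3 samples) had a single injection into the vitreous of 5 µL of microspheres of the degradable polymer PLGA loaded with 6.2 µg of spironolactone, which blocks the mineralocorticoid receptor. The non-loaded group (3 samples) had microspheres without drug, and retinas of both groups were dissected 2 months after the injection. Both groups were therefore diabetic and injected, and an untreated or a non-diabetic retina was not analysed here. Whether each sample is a separate animal is not stated in the labels, so the p-values rest on a spread between samples that can be in part technical.

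Heat shock proteins bind unfolded or newly made proteins and help them fold, stay soluble or reach the machinery that degrades them. HSP70 proteins work in a cycle of ATP hydrolysis that J-domain proteins start and nucleotide exchange factors end, HSP90 acts later on partly folded clients such as steroid receptors, and small heat shock proteins hold unfolded chains without using ATP. When proteins unfold, the transcription factor HSF1 is released from chaperones, forms trimers and binds heat shock elements in front of the inducible genes. Photoreceptors make and renew large amounts of membrane protein, and retinal chaperones are known for a part in protecting them from light and heat stress.

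Heat shock elements are runs of the unit GAA, alternating with its inverse TTC, separated by a pair of bases. The 250 bases in front of each gene were taken from a RefSeq table of the GRCr8 build, which had an entry for 8 of the 10 genes and none for Hsp90aa1 and Hspa1b. They were searched for 2 units (GAANNTTC or TTCNNGAA, both read the same on either strand) and for 3 units (TTCNNGAANNTTC or its reverse complement GAANNTTCNNGAA, so both strands are covered). A match with 3 units also holds overlapping matches with 2. At least 2 units were found in front of 7 of the 8 genes, and in 13.55% of all 33469 promoters in the table. The gene without a match was Hspa1a. Only the 250 bases before its annotated start were searched, so an element elsewhere, or at another start, would be missed. At least 3 units were found in front of 4 of the 8, Hspa8, Hsph1, Hspd1 and Hspe1, and in 0.663% of all promoters. These letters are a description and do not show that HSF1 bound. The sequences below show the genes with the heat shock element in its fuller form, and Dnajb1 and Hspb1, which have matches with 2 units only. Those of Hspa1a, without a match, and Hspb8, with 2 units, are not shown. Capitals mark every match with 2 units or more.
Hspa8 (GRCr8, chr8:50080264-50080513, plus strand): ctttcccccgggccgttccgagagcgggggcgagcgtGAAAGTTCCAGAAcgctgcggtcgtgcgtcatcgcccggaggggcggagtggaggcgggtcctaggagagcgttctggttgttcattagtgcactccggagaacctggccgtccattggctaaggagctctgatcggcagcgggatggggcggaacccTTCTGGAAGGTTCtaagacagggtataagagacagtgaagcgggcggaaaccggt
Hsph1 (GRCr8, chr12:10427118-10427367, plus strand): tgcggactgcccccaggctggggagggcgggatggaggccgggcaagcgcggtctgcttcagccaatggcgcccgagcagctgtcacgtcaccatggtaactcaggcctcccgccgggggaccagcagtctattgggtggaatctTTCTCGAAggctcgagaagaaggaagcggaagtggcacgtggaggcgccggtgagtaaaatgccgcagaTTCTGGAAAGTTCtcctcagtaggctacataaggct
Hspd1 and Hspe1, shared (GRCr8, chr9:64084038-64084287, minus strand): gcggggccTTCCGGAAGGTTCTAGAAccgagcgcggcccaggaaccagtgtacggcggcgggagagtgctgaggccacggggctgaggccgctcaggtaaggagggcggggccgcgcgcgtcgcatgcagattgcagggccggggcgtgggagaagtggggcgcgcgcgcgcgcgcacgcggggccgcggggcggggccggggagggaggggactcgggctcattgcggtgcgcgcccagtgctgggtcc
Dnajb1 (GRCr8, chr19:41431142-41431391, minus strand): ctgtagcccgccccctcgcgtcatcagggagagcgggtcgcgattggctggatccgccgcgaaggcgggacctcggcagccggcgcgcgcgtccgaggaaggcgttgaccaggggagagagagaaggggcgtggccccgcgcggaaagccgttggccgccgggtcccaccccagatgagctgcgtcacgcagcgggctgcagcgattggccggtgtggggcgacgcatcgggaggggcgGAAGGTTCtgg
Hspb1 (GRCr8, chr12:26432302-26432551, minus strand): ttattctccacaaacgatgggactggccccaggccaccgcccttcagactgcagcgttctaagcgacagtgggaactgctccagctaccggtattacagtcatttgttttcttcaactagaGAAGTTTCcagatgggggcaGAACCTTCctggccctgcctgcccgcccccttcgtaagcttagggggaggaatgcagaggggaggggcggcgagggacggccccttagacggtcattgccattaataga
In the Hspa8 sequence there are a pair of 3-unit elements, 213 to 201 and 55 to 43 bases before the start. Hsph1 has 3 units 36 to 24 bases before its start. Hspd1 and Hspe1 lie head to head with 290 bases between their starts. The stretch shown is the one before Hspd1. It overlaps most of the stretch before Hspe1, chr9:64084077-64084326, but lacks the bases next to the Hspe1 start. In the Hspe1 stretch the same run of 4 alternating units lies 65 to 48 bases before the start. Dnajb1 has 2 units 11 to 4 bases before its start. Hspb1 has 2 separate matches with 2 units each.

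**Figure D1:**
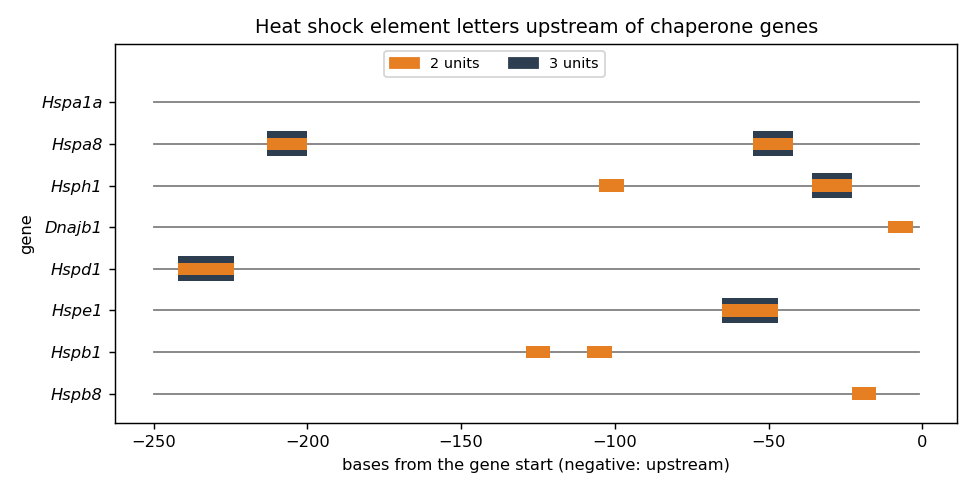
Position of heat shock element letters in the 250 bases before the annotated start of the 8 genes with a promoter entry. The x axis gives bases from the start, thin orange bars are matches with 2 units and taller dark bars are matches with 3 units, which occur for Hspa8, Hsph1, Hspd1 and Hspe1.

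Chaperone mRNA levels in these retinas covered a wide range. Levels are compared between genes as TPM (counts scaled for gene length and for library size), as mean ± SD of all 6 libraries. Hspa8, the constitutive HSP70 of the cytosol that also strips clathrin from vesicles, was highest at 743.3 ± 66.2 TPM, above 99.2% of all tested genes. Hspe1, the mitochondrial co-chaperonin HSP10, followed at 255.8 ± 31.7 TPM, then Hspd1, the chaperonin HSP60, at 98.1 ± 4.09 TPM. Dnajb1, the J-domain protein HSP40 that hands substrates to HSP70, stood at 90.7 ± 5.68 TPM, and Hsph1, the HSP110 exchange factor, at 64.2 ± 5.01 TPM. The stress-inducible HSP70 gene Hspa1b was far lower at 14.7 ± 2 TPM, above 35.7% of tested genes. How reads that match both Hspa1b and its near-identical copy Hspa1a were treated is not stated, so this level and its rank are uncertain. The small heat shock proteins were lowest, with 11.4 ± 2.84 TPM for Hspb1 (HSP27) and 9.02 ± 1.43 TPM for Hspb8, the partner of the co-chaperone BAG3. Neighbours in this order were separate in all 6 libraries down to Hsph1, although the ranges of Hspd1 and Dnajb1 over libraries overlapped. Hspb1 overlapped in range with Hspa1b above it and with Hspb8 below it, and each of these orders was kept in 5 of 6 libraries.

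**Figure D2:**
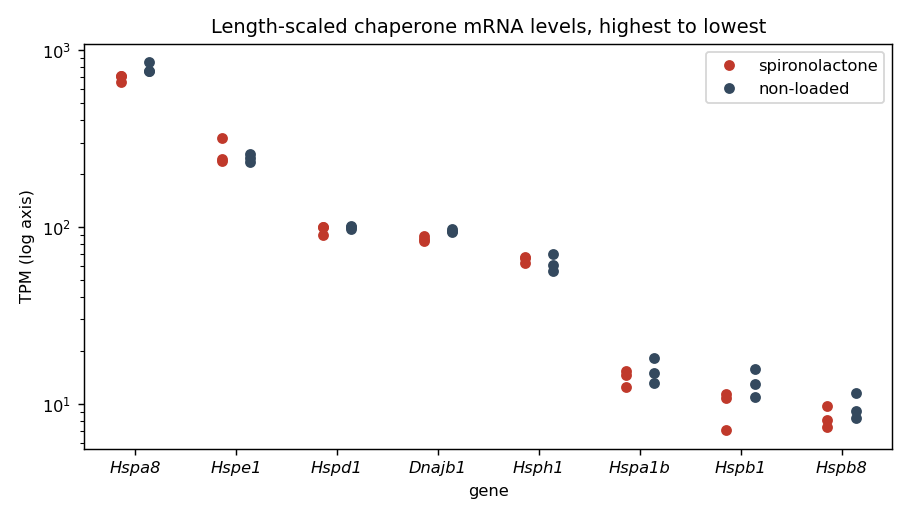
TPM of the 8 tested chaperone genes on a log axis, ordered by their mean, with a point for each spironolactone library (red) and each non-loaded library (dark). Hspa8 lies at 657.8 to 852 TPM and the 3 lowest genes, Hspa1b, Hspb1 and Hspb8, at 7.07 to 18.1 TPM.

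The summed TPM of the 10 genes was 1243, 1165 and 1312 in the spironolactone libraries and 1289, 1406 and 1310 in the non-loaded libraries. The sums overlapped. Hspa8 alone made up 57.4%, 56.5% and 54.1% of the sum with spironolactone, against 59.5%, 60.6% and 58% without. Hspa1a and Hsp90aa1 were listed at 0, which is not taken as a level. The sum and the share of Hspa8 therefore cover only the 8 tested genes.

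The design holds 1 comparison, of retinas with and without the drug in the microspheres. Of the 8 tested chaperone genes, 0 passed an adjusted p of 0.05 (edgeR quasi-likelihood test), where 2.63% of all 13242 tested genes did, 1.87% as higher and 0.763% as lower. At an unadjusted p under 0.05 there were 2, Hspa8 and Dnajb1, both lower, against 15.8% of all tested genes in either direction and 6.32% as lower. DESeq2 called 1 of the 8, Hspa8, beside 302 genes higher and 120 lower of all 13242 tested genes. It gave no adjusted p for Hspe1, Hspb1 and Hspb8. Hspa8 and Dnajb1 were also the 2 genes whose groups did not overlap, which held for 20.9% of all tested genes in either direction and for 9.48% as lower. The log2 fold change was below 0 for 6 of the 8 genes and lay between −0.44 and 0.12, with a median of −0.16 beside a median of −0.003 over all tested genes. The 95% interval of every one of the 8 lay within a 2-fold change, and that of 6 within a 1.5-fold change, so a 2-fold change in the whole retina was outside the interval of each of these 8 genes. In bulk tissue, fewer cells of a type and less RNA per cell cannot be told apart.

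Among the HSP70 genes, Hspa8 had the smallest p of the set. It measured 677, 652 and 695 CPM (counts scaled to a common library size with TMM factors) in the spironolactone libraries and 753, 862 and 730 CPM in the non-loaded libraries. All 3 spironolactone libraries were below all 3 non-loaded libraries, and the highest value was that of non-loaded replicate 2. The means were 674.5 ± 21.7 CPM with spironolactone and 781.7 ± 70.6 CPM without (SD, n = 3 each), a log2 fold change of −0.21 ± 0.07 (SE), and the gene did not pass (edgeR adjusted p = 0.102). In percent the difference was −13.7, with a 95% interval of −21.6 to −5.08. Hspa8 passed with DESeq2 (adjusted p = 0.0381) and in edgeR without a filter on low counts (adjusted p = 0.0371). Over all alternatives its edgeR, DESeq2 or limma adjusted p lay between 0.0371 and 0.390, the highest without non-loaded replicate 2, the library with the highest Hspa8 level. Without that library the log2 fold change was −0.14. Rod markers differed in the same direction: 11 of 22 tested were lower and 0 higher, beside 0.763% lower and 1.87% higher of all tested genes. The summed level of the rod markers was 51466 to 56682 CPM with spironolactone and 60817 to 73634.5 CPM without. Pigment epithelium markers held 0 calls among 13 tested by edgeR or DESeq2 and 2 at an unadjusted p under 0.05, and 12 of the 13 had a log2 fold change below 0 (median −0.13). Their summed level was 948 to 1003 CPM with spironolactone and 1046 to 1120 CPM without, which did not overlap, and of the markers Otx2 was listed at 0. Rpe65 (10.1 ± 4.43 CPM with spironolactone, 15.3 ± 3.55 CPM without) and Ttr (39.1 ± 19.3 CPM with, 55.9 ± 7.35 CPM without) overlapped between groups. Both are small parts of this sum. Rlbp1 is also on the list of Müller glia markers, so the sum does not stand for pigment epithelium alone. The part of rod or pigment epithelium RNA in the differences of Hspa8 and of Dnajb1 was not tested.

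The inducible gene Hspa1b, which is silent to low in unstressed cells of most tissues, had counts of 192, 198 and 214 in the spironolactone libraries and 188, 271 and 197 in the non-loaded libraries. This gave 17.9, 15.8 and 19.3 CPM with spironolactone and 19, 23.6 and 16.2 CPM without. The groups overlapped, with the lowest value in spironolactone replicate 2 and the highest in non-loaded replicate 2. The log2 fold change was −0.15 ± 0.14 (edgeR adjusted p = 0.651), and its 95% interval in percent ran from −26.3 to 10. Hspa1a, its near-identical neighbour in the MHC region, was listed at 0 counts in all 6 libraries. The sources used here do not say how reads that match both copies were treated, so Hspa1b stands for the pair only with this uncertainty. A further copy with high expression in testis, Hspa1l, had 12 to 16 counts with spironolactone and 3 to 11 without (log2 fold change 1.03 ± 0.46, edgeR adjusted p = 0.281).

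The exchange factor gene Hsph1 measured 118, 115 and 121 CPM with spironolactone and 103, 115 and 125 CPM without. The spironolactone libraries lay inside the range of the non-loaded ones. The log2 fold change was 0.05 ± 0.07 (edgeR adjusted p = 0.809), with an interval of −6.66 to 14.1 percent. Its promoter holds a 3-unit element, as does that of Hspa8. The J-domain gene Dnajb1 measured 96.5, 96.1 and 93.6 CPM with spironolactone and 106, 113 and 104 CPM without. The groups did not overlap, and the 3 spironolactone values were close together. The means were 95.4 ± 1.6 CPM with spironolactone and 107.5 ± 4.78 CPM without, a log2 fold change of −0.17 ± 0.06 that did not pass (edgeR adjusted p = 0.150) and was called under none of its 19 alternatives (adjusted p from 0.135 to 0.409).

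**Figure D3:**
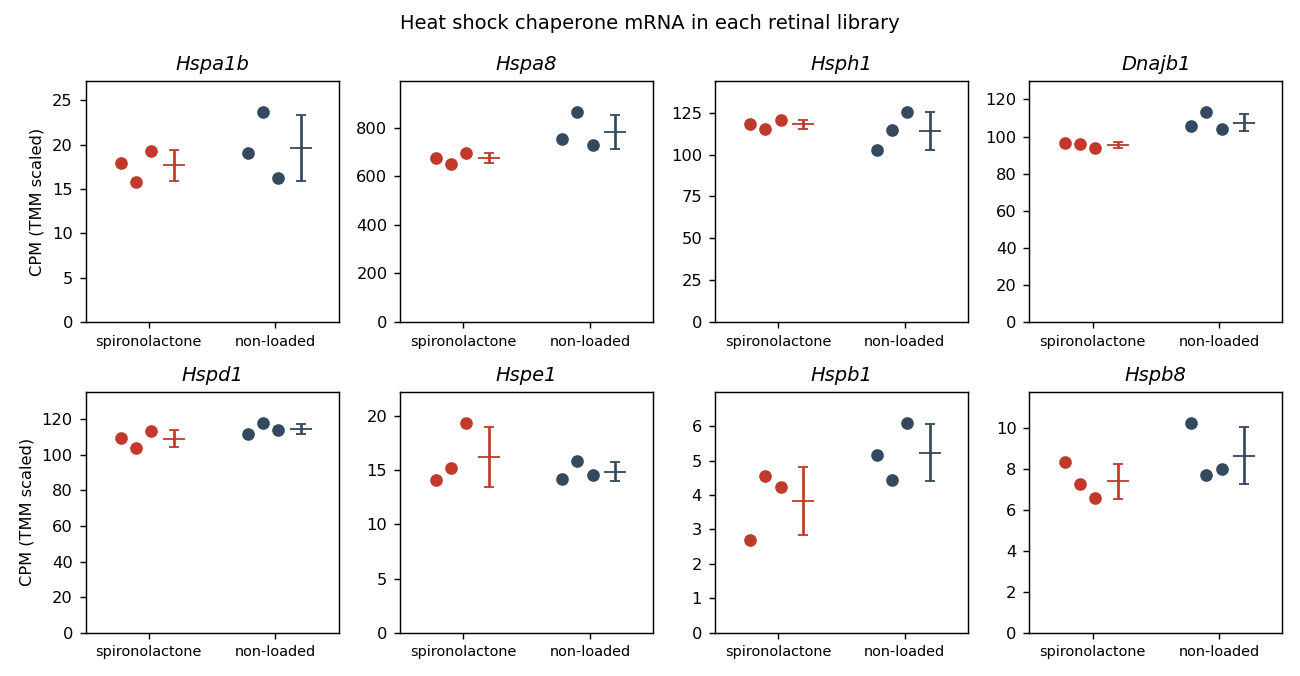
CPM of each tested chaperone gene in each library, with spironolactone left and non-loaded right. Points are libraries and bars beside them the mean and SD of 3 libraries, and the groups are separate for Hspa8 and Dnajb1 and overlap for the other 6 genes.

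The mitochondrial chaperonin is built from rings of HSP60 (Hspd1) that HSP10 (Hspe1) closes like a lid. Hspd1 measured 109, 104 and 113 CPM with spironolactone and 112, 118 and 114 CPM without. These groups overlapped at the upper spironolactone and the lower non-loaded value, and the log2 fold change was −0.07 ± 0.06 (edgeR adjusted p = 0.608, interval −12.8 to 3.71 percent). Hspe1 had 14.1, 15.2 and 19.3 CPM with spironolactone and 14.2, 15.9 and 14.6 CPM without. Its highest value belonged to spironolactone replicate 3, and its log2 fold change was 0.12 ± 0.14 (edgeR adjusted p = 0.717). Without that library the value was −0.022 (adjusted p = 0.979). Since the pair shares a promoter, the ratio of their mRNAs was taken in each library. In TPM, Hspe1 exceeded Hspd1 2.44, 2.63 and 3.2 times with spironolactone and 2.39, 2.58 and 2.41 times without. These ratios rest on the length used: the annotated Hspe1 transcript of 267 bases was given an effective length of 108 to 116 bases, while Hspd1 had 2227 annotated and 2064 to 2073 effective bases. Per annotated length the ratios were 1.07, 1.22 and 1.42 with spironolactone and 1.06, 1.13 and 1.07 without. The place of Hspe1 as second in the order of TPM levels depends on the same length.

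**Figure D4:**
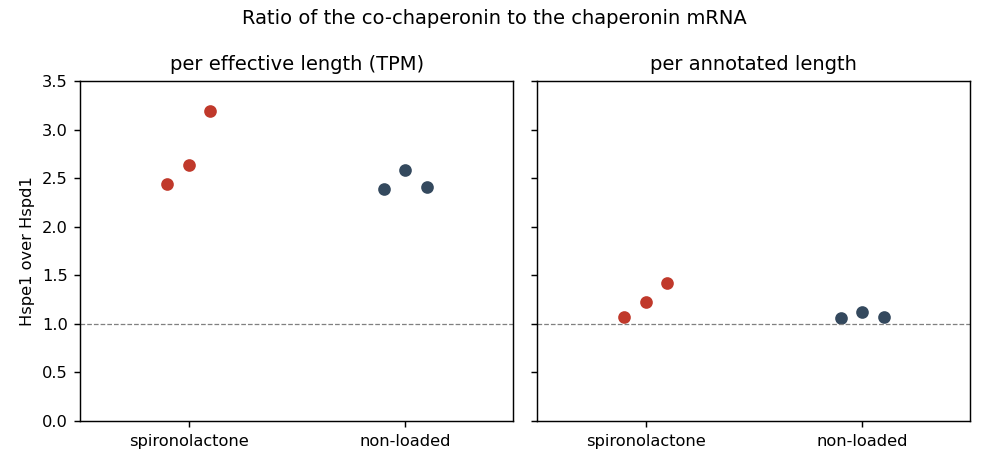
Ratio of Hspe1 to Hspd1 mRNA in each library, with spironolactone left and non-loaded right in each panel. Points are libraries, and the dashed line marks a ratio of 1. The left panel uses TPM (2.39 to 3.2) and the right panel counts per base of annotated length (1.06 to 1.42).

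Of the partners of this chaperonin in the mitochondrial matrix, Hspa9, the mitochondrial HSP70 that pulls imported proteins in, did rise. It measured 262.7, 257.4 and 268.2 CPM with spironolactone and 193.2, 195.1 and 208 CPM without. Every spironolactone library was above every non-loaded one. The log2 fold change was 0.40 ± 0.06 (edgeR adjusted p = 0.00058), and it passed in all 19 alternatives (adjusted p at most 0.0198). Hspa9 is no member of the set and was taken from a list of mitochondrial chaperones and proteases, with a median of 0.03. Of 17 tested on this list 2 rose and 0 fell, beside 1.87% higher and 0.763% lower of all tested genes. The second that rose was Atf5, a transcription factor tied to the mitochondrial unfolded protein response (57.8 ± 7.04 CPM with spironolactone, 33.5 ± 2.55 CPM without, log2 fold change 0.79 ± 0.10, edgeR adjusted p = 0.00015). The next genes of this list, Spg7 (−0.13) and Clpp (−0.20), subunits of mitochondrial proteases, did not pass, and Yme1l1 was listed at 0 in every library. To set Hspa9 against Hspd1 directly, their CPM ratio was taken, a comparison chosen after the values were seen. It was 2.4, 2.48 and 2.37 with spironolactone and 1.73, 1.66 and 1.83 without, with no overlap. The log2 ratio differed by 0.48, and an exact two-sided permutation test gave p = 0.1, the smallest that 3 against 3 samples allow. Since the pair was chosen after the values were seen, this p is no independent support for a difference between these genes.

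The small heat shock proteins had the lowest counts and the widest intervals. Hspb1, which is known from glia and vessel walls, had 29, 57 and 47 counts with spironolactone and 51, 51 and 74 counts without. This gave 2.71, 4.55 and 4.24 CPM with spironolactone and 5.16, 4.45 and 6.09 CPM without. The groups overlapped, with the lowest value in spironolactone replicate 1 and the highest in non-loaded replicate 3. The log2 fold change of −0.44 ± 0.24 was the furthest from 0 in the set and did not pass (edgeR adjusted p = 0.396), with an interval of −48.1 to 4.47 percent. Without spironolactone replicate 1 it was −0.25, nearer to 0 than Hspb8 in the same fit (−0.31). Hspb8 measured 8.31, 7.26 and 6.59 CPM with spironolactone and 10.2, 7.68 and 7.98 CPM without. The groups overlapped (log2 fold change −0.22 ± 0.18, edgeR adjusted p = 0.602). With non-loaded replicate 1 left out, the log2 fold change of Hspb8 was −0.085. Of 8 other small heat shock protein genes 3 were tested, 0 were called by edgeR or DESeq2 and 0 had an unadjusted p under 0.05, with a median log2 fold change of −0.07. Cryab, the αB-crystallin gene of glia and lens, measured 34.4 ± 1.21 CPM with spironolactone and 38.6 ± 2.38 CPM without (−0.17 ± 0.09, edgeR adjusted p = 0.367). Hspb6 measured 45.3 ± 6.01 CPM with spironolactone and 42.8 ± 5.24 CPM without (0.09 ± 0.11, edgeR adjusted p = 0.754). Lens crystallins, which would mark adhering lens, were near the floor in these listings. The whole lens list summed to 7.77 to 12 CPM with spironolactone and 7.76 to 9.62 CPM without, and 2 of 17 matched genes were tested and 0 were called. Crygc, Mip and Lim2 were listed at 0 in every library, which is not taken as a level. Markers of smooth muscle and pericytes, cells that also make small heat shock proteins, summed to 191.3 to 205.2 CPM with spironolactone and 191.5 to 197.9 CPM without, with 0 of 12 called by edgeR or DESeq2 and 2 at an unadjusted p under 0.05.

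Hsp90aa1, the inducible cytosolic HSP90, cannot be described, since it was listed at 0 in all 6 libraries. Other genes that retinal cells use were listed at 0 as well, among them Otx2, a photoreceptor and bipolar cell transcription factor, and the exchange factor Bag5, so a 0 is taken as a property of the listing and not as a level. Its constitutive relative Hsp90ab1 was well counted, at 871.3, 846.4 and 821.3 CPM with spironolactone and 906, 947.5 and 895.4 CPM without. All spironolactone values were lower, but the log2 fold change of −0.11 ± 0.06 did not pass (edgeR adjusted p = 0.326).

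**Figure D5:**
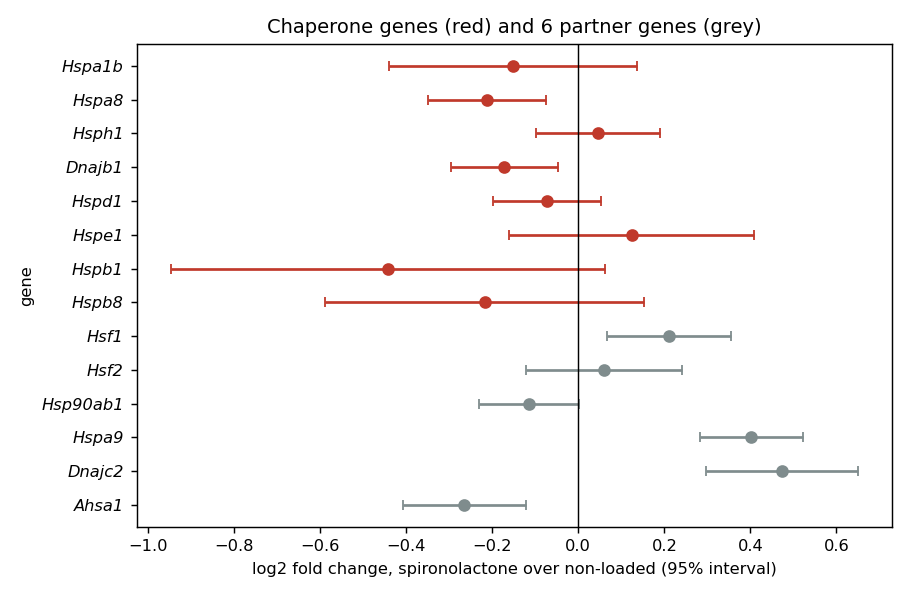
Log2 fold change, spironolactone over non-loaded, with its 95% interval from the edgeR fit, for the 8 tested chaperone genes (red) and 6 partner genes (grey). The red points lie between −0.44 and 0.12. The whole interval lies to the right of 0 for Hsf1 (0.21), Hspa9 (0.40) and Dnajc2 (0.47), and to the left for Hspa8, Dnajb1 and Ahsa1. Hsf1, Hspa8 and Dnajb1 did not pass an adjusted p of 0.05 in that fit.

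Of the genes that control heat shock transcription, none was called higher. Hsf1, the heat shock factor itself, measured 69.9, 75 and 67 CPM with spironolactone and 61.5, 60.7 and 60.9 CPM without. The groups did not overlap, but the log2 fold change of 0.21 ± 0.07 did not pass (edgeR adjusted p = 0.123). Hsf2 was at 34 ± 1.8 CPM with spironolactone and 32.7 ± 1.1 CPM without (0.06 ± 0.09, edgeR adjusted p = 0.796). The list of heat shock factors and regulators, which also holds the heat shock-induced gene Dedd2, had 7 tested genes with a median of −0.14. Of all tested genes 1.87% were higher and 0.763% lower. On this list 0 rose and 2 fell. They were Dedd2, a death-effector-domain gene that heat shock induces (32.6 ± 0.6 CPM with spironolactone, 44 ± 3.52 CPM without, −0.43 ± 0.09, edgeR adjusted p = 0.0116), and Hsbp1l1, a relative of the HSF1-binding protein gene Hsbp1 (13.9 ± 0.64 CPM with spironolactone, 20.6 ± 2.09 CPM without, −0.56 ± 0.12, edgeR adjusted p = 0.0154). Dedd2 did not pass without non-loaded replicate 1 (0.0772) or 2 (0.062), without spironolactone replicate 2 (0.0756) or on log2(TPM + 1) (0.0606), nor Hsbp1l1 without non-loaded replicate 1 (0.0997) or spironolactone replicate 2 (0.0645) or 3 (0.0627). Hsbp1 was at −0.10 and did not pass.

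Of 23 other known targets of HSF1 tested, 1 rose (Hspa9) and 1 fell, beside 1.87% higher and 0.763% lower of all tested genes. The median of the 23 was −0.02. The one that fell was Ahsa1, which encodes the activator of the HSP90 ATPase. It measured 56.5, 55.8 and 55.3 CPM with spironolactone and 64.4, 68.9 and 67.8 CPM without (−0.26 ± 0.07, edgeR adjusted p = 0.0474). With 1 library left out, Ahsa1 passed only where that was spironolactone replicate 1 (otherwise adjusted p from 0.0904, non-loaded replicate 1 left out, to 0.172, spironolactone replicate 2 left out), and it did not pass on log2(TPM + 1) (0.114), with effective lengths (0.0565) or with library totals (0.0585). Ptges3, the HSP90 co-chaperone p23, measured 136.1 ± 2.49 CPM with spironolactone and 123.4 ± 5.23 CPM without (0.14 ± 0.06, edgeR adjusted p = 0.241).

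Among the co-chaperones, 2 of 21 J-domain genes rose and 0 fell, where 1.87% of all tested genes were higher and 0.763% lower. Of the 21, 18 had a log2 fold change above 0 (median 0.07), while 50.7% of all tested genes were below 0. Dnajc2, the J-domain protein of the ribosome-associated complex, measured 54.4, 52.8 and 62.6 CPM with spironolactone and 39, 40.9 and 42.3 CPM without (0.47 ± 0.08, edgeR adjusted p = 0.00445), and it passed without each library in turn. Dnajc13, which acts on endosomes, measured 148.9 ± 8.18 CPM with spironolactone and 122.9 ± 3.53 CPM without (0.28 ± 0.06, edgeR adjusted p = 0.0191). With 1 library left out, Dnajc13 passed only where that was spironolactone replicate 1 (otherwise adjusted p from 0.0522, non-loaded replicate 3 left out, to 0.110, non-loaded replicate 2 left out), and it did not pass on log2(TPM + 1) (0.150). The next, Dnajc8 (0.20) and Dnajc7 (0.16), did not pass. Of 19 HSP90 family and co-chaperone genes, Fkbp5 was called higher (0.41 ± 0.07, edgeR adjusted p = 0.00362) and Ahsa1 lower. Of 11 HSP70 exchange factor genes 0 were called by edgeR or DESeq2 and 0 had an unadjusted p under 0.05 (median −0.004), the nearest being Hspbp1 (−0.14, edgeR adjusted p = 0.488) and Grpel1 (−0.16, edgeR adjusted p = 0.508). The same held for 0 of 14 genes of the TRiC chaperonin and prefoldin, which fold actin and tubulin (median 0.01), with Cct3 (−0.09, edgeR adjusted p = 0.519) and Vbp1 (−0.12, edgeR adjusted p = 0.544) nearest. Of 11 other HSP70 family genes only Hspa9 was called, and the endoplasmic reticulum member Hyou1 was at −0.19 (edgeR adjusted p = 0.119). Without the 10 genes and without any gene on the list of endoplasmic reticulum chaperones, such as Hyou1, the other chaperone lists together held 94 tested genes. Of these 5 rose and 3 fell, or 8.51%, beside 2.63% of all tested genes, with a median log2 fold change of 0.01. The called genes include some that are no chaperones, such as Atf5 and Dedd2. The lists were chosen with earlier results of these data known, so the 2 shares are not a fair comparison.

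The genes whose pattern over the 6 libraries was most like that of 4 chaperone genes, those with the smallest p, were looked up among 9878 genes with a mean log2 CPM of at least 3. The measure was Pearson's r of log2 CPM, which over 6 points and this many genes is high for some gene by necessity. For Hspa8 they were Ap2a2 (0.986), Bcs1l (0.985) and Gucy1b3 (0.980). For Dnajb1 they were Ap2m1 (0.999), Ap3b2 (0.996) and the rod gene Rcvrn (0.992). Sox13 (0.994), Smg8 (0.976) and Kdm2b (0.975) were nearest to Hspb1, and Dusp1 (0.989), Atxn7l3 (0.988) and Mgat4a (0.987) to Hspb8. No gene was nearest to more than 1 of the 4.

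For the retina as a whole, 247 genes were higher and 101 lower with spironolactone. With 1 library left out, the counts ranged from 81 higher and 30 lower without spironolactone replicate 2 to 421 and 200 without spironolactone replicate 1. Totals per library were 10575220 to 12589466 expected counts with spironolactone and 9996198 to 11966769 without. The rod transducin gene Gnat1, at 5864 ± 588 CPM with spironolactone and 10068.5 ± 2086 CPM without, marks all libraries as neuroretina. Müller glia markers, some of which share their cells with Hspb1 and Cryab, held 2 lower genes of 20, Crym and Dbi. Of all tested genes 0.763% were lower and 1.87% higher. The Müller glia markers summed to 9776 to 10150.5 CPM with spironolactone and 10028 to 10373 CPM without. Their part in any chaperone value was not tested. Vwf was the only call, higher, among 11 endothelium markers. Of skeletal muscle and erythrocyte markers 3 and 1 were tested, and 0 were called or had an unadjusted p under 0.05.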

How the data were processed

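RNA of the neuroretina was sequenced in 6 samples, 3 per group, grouped by the treatment field of the labels. The submitters' processing notes name STAR 2.5.3a, RSEM 1.2.28, Trimmomatic, FastQC and the build rn6 without roles, and per the labels' protocols the libraries came from a stranded mRNA kit. For the annotation version, the strand setting and reads with several matches, nothing is stated in the labels or headers. Expected counts per gene and TPM were deposited by the authors in RSEM tables, per the file headers, as were gene lengths and FPKM, which the authors deposited too and which was not used here. In each library, 0.437% to 0.469% of the 28358 genes, those at 0 included, had an expected count that was not a whole number.

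Counts were rounded and genes kept by filterByExpr, which left 13242 of 28358 genes. edgeR 4.0.16 (TMM, glmQLFit, glmQLFTest, two-sided) in R 4.3.3 gave log2 fold changes of spironolactone over non-loaded, with p-values adjusted by Benjamini-Hochberg over every tested gene, called under 0.05. The SE is the size of the fold change over the square root of F, and the 95% interval uses the t distribution with the fit's degrees of freedom. The fit was tested on simulated data with known changes. The 10 genes and the lists were chosen with earlier results of these data known. Named genes are the 10, Hsf1 and Hsf2, up to 6 called genes of each list and the next 2 by p. Of the marker, immediate early and endoplasmic reticulum lists the text gives a part. Alternatives were other scalings, DESeq2 1.42.0, limma 3.58.1, other filters, TPM with a pseudocount of 1 or 0.1, and each library left out. No batch was labelled.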

Additional observations from a re-analysis of the deposited data

How the results depend on the processing

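The count of chaperone genes called higher was 0 under all 19 alternatives. The count called lower was 1, Hspa8, with DESeq2 and without a low count filter, and 0 under the other 17. Signs turned without 1 library for 3 genes with small differences: Hspa1b turned to 0.0061 without non-loaded replicate 2 (range with a library left out −0.28 to 0.0061), Hsph1 to −0.023 without non-loaded replicate 1 (−0.023 to 0.11) and Hspe1 to −0.022 without spironolactone replicate 3 (−0.022 to 0.21). The other 5 tested genes kept their direction in every alternative that gave them a value, but 4 moved by over 1.5 times without 1 library: Hspa8 to −0.14 without non-loaded replicate 2, Hspd1 to −0.039 without spironolactone replicate 2, Hspb1 to −0.25 without spironolactone replicate 1 and Hspb8 to −0.085 without non-loaded replicate 1. Over all tested genes, 247 were called higher and 101 lower, against 79 and 16 on log2(TPM + 0.1), 82 and 18 on log2(TPM + 1), 439 and 163 without a filter and 416 and 177 at an adjusted p of 0.1. With each library left out in turn the counts lay between 81 and 421 higher and between 30 and 200 lower. The cause of these shifts was not tested, apart from the wider threshold, which admits more genes by construction. The difference of log2 Hspa9 over Hspd1 was 0.44 to 0.51 with a library left out and 0.48 in TPM, alternatives chosen after seeing the data. Leaving out a library leaves 2 samples in a group, whose spread is then shared with the other group. Summing Hspa1a and Hspa1b changed nothing, since Hspa1a was listed at 0. DESeq2 gave no adjusted p for Hspe1, Hspb1 and Hspb8. No paired analysis was possible because the labels give the groups no shared replicate numbers, and the numbers used here follow the order of listing and pair nothing. Depth limits Hspb1 and Hspb8 most, with 29 to 74 and 73 to 101 counts per library.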

Other observations

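Of 18 tested chaperones of the endoplasmic reticulum, 1 rose and 0 fell, beside 1.87% higher and 0.763% lower of all tested genes. At an unadjusted edgeR p under 0.05 there were 4, beside 15.8% of all tested genes. The median log2 fold change of the 18 was 0.004. The gene that rose was Herpud1, a stress-induced protein of the degradation machinery in that membrane (233.3 ± 16.8 CPM with spironolactone, 167.4 ± 32.1 CPM without, 0.48 ± 0.10, edgeR adjusted p = 0.0145). It did not pass without non-loaded replicate 1 (0.0647) or 2 (0.0559), without spironolactone replicate 2 (0.143), with DESeq2 (0.077), with robust shrinkage (0.204) or on log2(TPM + 1) (0.110). Calr, the calreticulin gene, measured 378.1 ± 15.2 CPM with spironolactone and 416.1 ± 14.3 CPM without (−0.14 ± 0.06, edgeR adjusted p = 0.242).

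Immediate early genes, which handling of tissue can induce as it can heat shock genes, held 4 higher and 0 lower genes of 16 tested (median 0.03). Of all tested genes 1.87% were higher and 0.763% lower. Jun measured 543.1 ± 43.9 CPM with spironolactone and 202.6 ± 102.8 CPM without (1.42 ± 0.21, edgeR adjusted p = 0.000945), and Atf3 133.8 ± 12.6 CPM with spironolactone and 57.3 ± 22.7 CPM without (1.21 ± 0.16, edgeR adjusted p = 0.000384). With robust shrinkage neither Jun (0.221) nor Atf3 (0.176) passed. Npas4 was higher by 1.38 ± 0.22 and Jund by 0.36 ± 0.08, the second not without non-loaded replicate 1 (0.132) or 2 (0.121) or spironolactone replicate 2 (0.155), nor on log2(TPM + 1) (0.131). Fos was at 7.85 ± 1.61 CPM with spironolactone and 10.4 ± 2.09 CPM without (−0.40 ± 0.19, edgeR adjusted p = 0.312), and Nr4a3 at 1.38 ± 0.20 CPM with spironolactone and 2.89 ± 0.45 CPM without (−1.07 ± 0.31, edgeR adjusted p = 0.0815).

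In the tables, 10888 of 28358 genes were listed at 0 in every library, Hspa1a and Hsp90aa1 among them.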
